A study of Oryza sativa with 12 samples.

Results

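This account describes 135 rice genes whose transcript level was at least 2-fold higher in seedlings chilled before dawn than in unchilled ones, with a still larger difference in seedlings chilled before dusk. They are 135 of 40424 genes in the deposited count table, or 0.829% of the 16290 genes that reached the minimum level set by the rule. The samples, all with WT in their labels, were shoots of the indica rice cultivar 93-11 at the 3-leaf stage, about 10 days old, raised at 28 °C with 12 h of light and 12 h of dark. NT12 and CT12 were harvested at Zeitgeber time (ZT, hours after lights-on) 12, the end of the light period, after the last 4 h, from ZT8, at 28 °C (NT12) or at 13 °C (CT12). NT24 and CT24 were harvested at ZT24, as the dark period ended, after 4 h from ZT20 at 28 °C (NT24) or at 13 °C (CT24). By this schedule the chilling before dusk fell in the light period and the chilling before dawn in the dark period. Time of day and light during the treatment therefore cannot be told apart here. Each group had 3 biological repeats, each a pool of 5 plants, so that a value is a mean over plants and over all cell types of the shoot. In such bulk samples more transcript per cell and more cells of a type cannot be told apart.

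The members were chosen by the measured values of the same 12 libraries. Counts were divided by median-of-ratios size factors, and the level of a gene in a group was log2 of the mean of its 3 libraries plus 1. The chilling response was a (CT12 minus NT12) before dusk and b (CT24 minus NT24) before dawn. A gene was kept when its highest level was at least 8, b was at least 1 and a exceeded b by at least 1.5, which together require a to be at least 2.5. The sizes of a, b and their difference are therefore given below as a description, with no test. Just inside the limits the lowest difference of responses was 1.503 and the lowest b 1.01. Just outside they were 1.48 and 0.99. Within 0.1 of the limit on the difference lay 14 members and 13 genes left out.

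Rice comes from warm climates, and 13 °C chills it without freezing it. In plants, cold is relayed through calcium signals and protein kinases to transcription factors, among them the DREB1/CBF family, which switch on genes for protective proteins, sugars and membrane lipids. In Arabidopsis the circadian clock gates this relay, so that the same cold given at another time of day yields another amount of transcript. The count table does not pair its identifiers with gene names, and 0 of the 135 members matched the rice gene table of RefSeq, so no function is assigned to any member here. For the same reason the lists of DREB1 factors, clock genes and dehydrins had no member that could be looked up, and the labelled tissue could not be checked by marker genes.

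Before dusk the median member was 15.2-fold higher with chilling on the scale of the rule (median a of 3.93, range 2.61 to 8.33), and before dawn it was 3.32-fold higher (median b of 1.73, range 1.01 to 5.78). The difference before dusk was at least 8-fold for 120 members, against 19 before dawn. The difference of the responses had a median of 2.05. It was below 2 for 63 members, at least 3 for 23 and at least 4 for 9, with the highest at 6.86. Of the 135 members, 135 were called higher in CT12 than in NT12 (edgeR's quasi-likelihood F-test, with a p adjusted after Benjamini and Hochberg below 0.05), where 24.9% of all 24700 genes tested were. For CT24 against NT24 the call was made for 122 members (21.9% of all genes), and for a larger response before dusk for 101 (13.0% of all genes). The rule used these contrasts, so nothing is read from the counts.

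**Figure D1:**
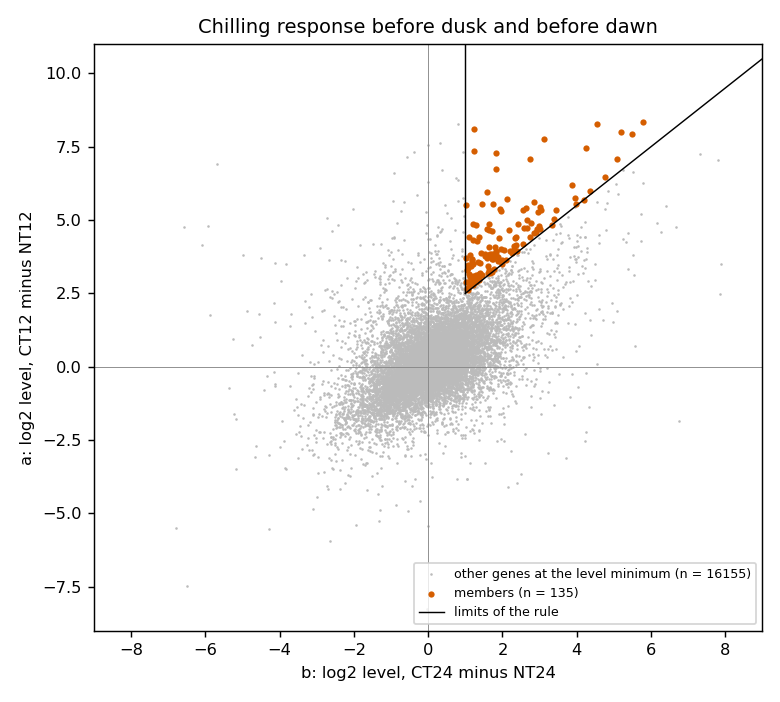
Each point is a gene at or above the minimum level, with its chilling response before dawn (b, log2 units) on the horizontal axis and before dusk (a, log2 units) on the vertical axis. The 135 members fill the corner that the lines of the rule cut off, with a between 2.61 and 8.33, and for 63 of them a exceeds b by less than 2.

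Together the members made up a larger part of the transcripts in chilled than in unchilled seedlings, as the rule required. Their summed level, in CPM (counts scaled to a common library size), was 1763, 1602 and 1791 in the NT12 libraries and 30318, 27008 and 27791 in the CT12 libraries. In NT24 it was 4764, 4479 and 4216 and in CT24 13885, 14469 and 13964. The 4 groups did not overlap, and the order from low to high was NT12, NT24, CT24 and CT12. The group means of 1718 ± 102 (NT12), 28372 ± 1730 (CT12), 4486 ± 274 (NT24) and 14106 ± 317 CPM (CT24; SD, n = 3) gave a 16.5-fold higher sum with chilling before dusk and a 3.14-fold higher sum before dawn. As shares of the raw counts the sums were 0.228% ± 0.0104, 2.22% ± 0.135, 0.442% ± 0.0278 and 1.37% ± 0.0208, which made the first ratio 9.75 and the second 3.11. The 10 most abundant members held between 47.9% and 63.8% of the sum in each library.

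**Figure D2:**
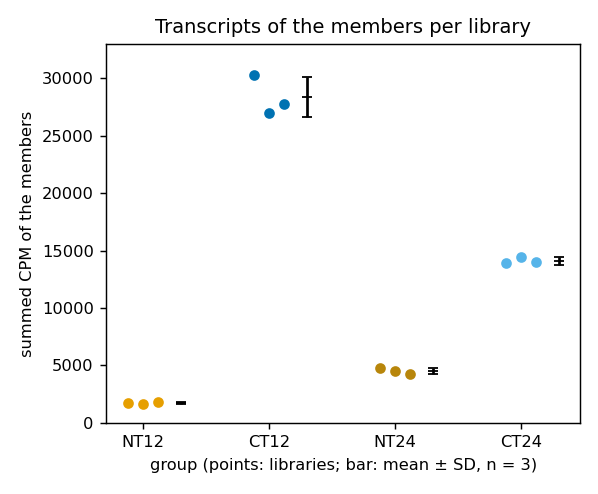
The vertical axis gives the summed CPM of the 135 members, with 1 point per library and the mean ± SD of each group beside the points (n = 3). The 3 CT12 libraries lie between 27008 and 30318 CPM, above the CT24 libraries at 13885 to 14469, the NT24 libraries at 4216 to 4764 and the NT12 libraries at 1602 to 1791.

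Members covered a wide range of abundance. Their mean over the 12 libraries ran from 1.64 to 1053 CPM with a median of 25.9, and 29 of them (21.5%) averaged over 100 CPM, against 7.70% of all genes tested. The rule required a minimum level that the genes tested did not have to reach, so nothing is read from this difference. At 28 °C many were scarce: 44 members lay below 1 CPM in NT12 and 35 in NT24. In CT24 there were 11 such members and in CT12 0, where the lowest stood at 1.26 CPM. A group with no count at all was found for 1 member in NT12 and for 4 in NT24, and a further 2 in each of these groups had 1 to 3 counts. In such genes the constant of 1 count in the rule sets the size of the response. In the edgeR fit, 5 members had a difference of responses below 1.5 log2 units, 3 of them with such a low group, and for 2 members the fitted difference was below 0.

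A response that is larger before dusk can go with a lower starting level at dusk, with a higher level reached at dusk, or with both. In log2 units the difference of responses is the sum of the gap at 28 °C (NT24 minus NT12) and the gap at 13 °C (CT12 minus CT24). The rule fixed that this sum is at least 1.5 but not how it divides. The gap at 28 °C had a median of 0.44 over the members and ran from -4.75 to 8.27, and the gap at 13 °C had a median of 1.82 and ran from -4.61 to 7.60. The gap at 13 °C was the larger one for 85 members and the gap at 28 °C for 50.

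The most frequent pattern was a higher chilled level at dusk. In 79 members (58.5%) the level of CT12 was at least 2-fold above that of CT24, while NT24 was not 2-fold above NT12. Their median level was 3.96 CPM in NT12 and 86.8 in CT12, and at dawn it was 2.96 in NT24 and 7.90 in CT24. For 56 of the 79 the unchilled levels at dusk and dawn lay within 2-fold of each other. For the other 23 the unchilled level was at least 2-fold higher at dusk, so that these genes stood higher at dusk at both temperatures.

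In 41 members (30.4%) it was the unchilled level that differed. NT12 was at least 2-fold below NT24 in these, and CT12 was not 2-fold above CT24. Their median level was 1.48 CPM in NT12 against 26.8 in CT12, and 18.5 in NT24 against 60.4 in CT24. For 28 of the 41 the chilled levels at the end of the day and of the night lay within 2-fold of each other. For 13 the chilled level was at least 2-fold higher at dawn, and in these members the steeper rise at dusk still ended below the dawn level. In CPM rather than in fold terms, 25 of the 41 had the larger increase with chilling at dusk, against 119 of all 135 members.

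Both gaps were at least 2-fold in 11 members (8.15%), with a median level of 1.19 CPM in NT12 against 85.6 in CT12, and of 13.7 in NT24 against 31.9 in CT24. For 4 members neither gap reached 2-fold. Gaps of at least 8-fold were found at 28 °C for 14 members with NT24 above NT12 and for 5 with NT12 above NT24. At 13 °C they were found for 30 members with CT12 above CT24 and for 3 with CT24 above CT12.

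The order of the 4 group means took 5 forms. In 54 members it ran NT12, NT24, CT24, CT12 from low to high, so that the time with the lower unchilled level had the higher chilled level. In 46 it ran NT24, NT12, CT24, CT12, and in 15 NT12, NT24, CT12, CT24. In 11 members CT24 stayed below NT12, the order being NT24, CT24, NT12, CT12: chilling before dawn brought these transcripts to less than seedlings at 28 °C held at dusk. In 9 members CT12 stayed below NT24, the order being NT12, CT12, NT24, CT24. CT12 was the highest group for 111 members and CT24 for 24, and the lowest group was NT12 for 78 and NT24 for 57.

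**Figure D3:**
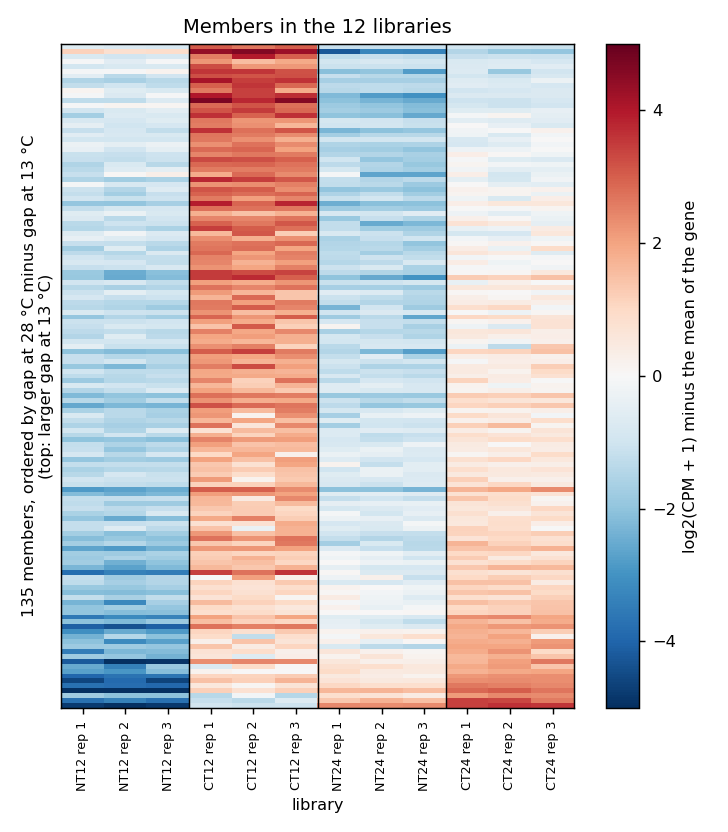
Rows are the 135 members and columns the 12 libraries, with colour for log2(CPM + 1) minus the mean of the gene and the colour scale ending at 5 log2 units either way. From top to bottom the rows run from members with the larger gap at 13 °C, which are highest in CT12, to members with the larger gap at 28 °C, which are lowest in NT12.

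The single gaps were also called one by one. NT24 was called higher than NT12 for 55 members (23.2% of all genes) and lower for 24 (20.9% of all genes). CT12 was called higher than CT24 for 91 members (21.8% of all genes) and lower for 12 (20.3% of all genes). By these calls 46 members differed at 13 °C alone, 22 at 28 °C alone and 10 in neither. A further 21 were lower in NT12 and higher in CT12, 24 were higher at dusk at both temperatures, and 12 were higher at dawn at both temperatures. The same combinations were not counted over all genes, so no pattern is read as more frequent among the members. Since the rule fixed the sum of the gaps, these calls are a description.

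A measure that cancels out of a, b and their difference is the time-of-day average: the mean log2 level of NT24 and CT24 minus that of NT12 and CT12. A negative value means that the gap at 13 °C is the larger one, and a positive value that the gap at 28 °C is. It would be independent of the responses used by the rule only with equal spread in all groups. That condition was not met, since the median coefficient of variation between libraries over all genes was 18.5% in CT12 against 12.2% to 12.6% in the other groups, and the minimum level also bears on it. Of the 135 members, 67 (49.6%) were called higher at ZT12 (edgeR, same test, adjusted over all 24700 genes), where 25.5% of all genes were. Another 32 (23.7%) were called higher at ZT24, where 27.3% of all genes were, and 36 were called in neither direction. Over the 16290 genes at the minimum level the shares were 29.9% higher at ZT12 and 33.5% higher at ZT24. Most members had their highest level in CT12, and of the 5049 genes at the minimum level that did so, 63.2% were called higher at ZT12, against 60.4% of the 111 members that did. The members' share was therefore close to that of all genes at the minimum level that peak in CT12, and nothing particular to the members is read from it. Higher at ZT24 were 7.21% of those 111 members, against 3.09% of the 5049 genes. All 24 members that peak in CT24 were called higher at ZT24, against 62.1% of the 3846 such genes. For these members the rule requires NT24 above NT12, which fixes the sign of the average. The median over the members was -0.60 log2 units, against 0.05 over all genes. Among the called members the absolute difference had a median of 1.78 log2 units for those higher at ZT12 and 1.71 for those higher at ZT24. The counts of members ranged from 66 to 71 and from 31 to 35 over 19 alternative fits.

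**Figure D4:**
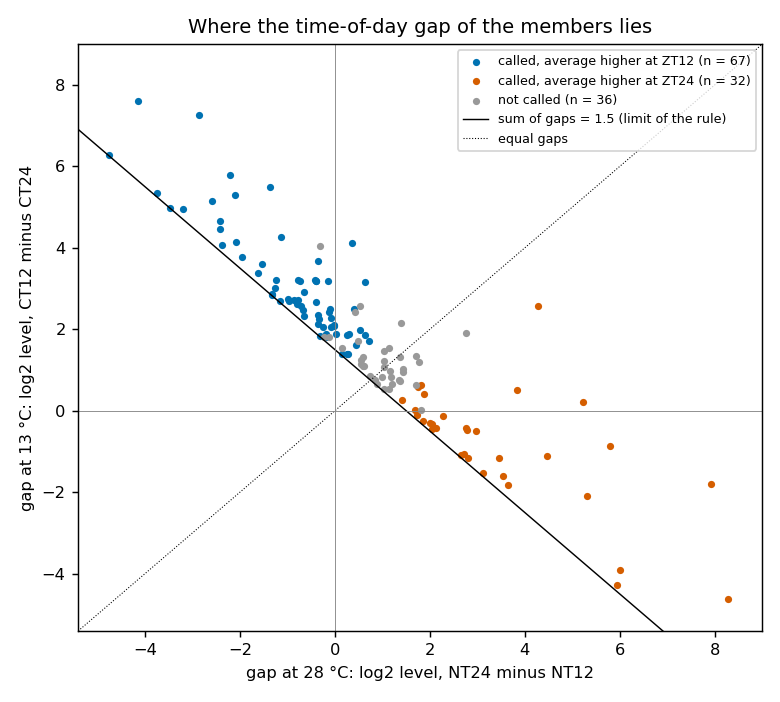
Each point is a member, with its gap at 28 °C (NT24 minus NT12, log2 units) on the horizontal axis and its gap at 13 °C (CT12 minus CT24, log2 units) on the vertical axis, coloured by the call of the time-of-day average. The solid line is the limit of the rule at a sum of 1.5, and the members spread along it on both sides of the dotted line of equal gaps, with 67 called higher at ZT12, 32 called higher at ZT24 and 36 not called.

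By identifier, 10 of the members are given, chosen by a rule on size among the 109 that averaged at least 5 CPM. Some were chosen by the size of the time-of-day average itself, so its adjusted p-values below are a description. The highest a and the highest b both belonged to OsR498G0917659900.01. Its level was 0.111, 0.0152 and 0.201 CPM in NT12, 53.8, 33.3 and 37.9 in CT12, 0, 0 and 0 in NT24, and 1.03, 0.881 and 1.58 in CT24. It was nearly silent without chilling at both times, and the chilled libraries did not overlap the unchilled ones. The mean was 383-fold higher in CT12 than in NT12, and at least 53.4-fold higher in CT24 than in NT24, counting 3 counts over the NT24 libraries as the floor. Its response before dusk is larger under the rule by 2.55 log2 units, yet the edgeR fit gave a difference of -0.27, since with no count in NT24 the size of b is not measured. Its difference of responses therefore depends on the constant added to the counts. In CT12 it stood 35.8-fold above CT24.

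The next highest a, and the highest difference of responses, was that of OsR498G0917532800.01. It measured 0.411, 0.881 and 0.725 CPM in NT12, 208, 126 and 234 in CT12, 19.2, 10.9 and 10.9 in NT24, and 33.3, 29.7 and 32.7 in CT24. The 4 groups did not overlap. NT12 was lowest and CT12 highest, so that both gaps contributed, 4.28 log2 units at 28 °C and 2.58 at 13 °C. The responses were 8.10 before dusk and 1.24 before dawn, and the time-of-day average was 0.88 (SE 0.21, edgeR adjusted p = 0.00454), higher at ZT24.

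The next highest b was found for OsR498G0307016500.01, with 0.285, 0.440 and 0.632 CPM in NT12 and 73.8, 71.0 and 46.0 in CT12. At dawn it had 1.19, 1.18 and 0.840 CPM in NT24 and 28.5, 33.7 and 46.3 in CT24. It was strongly induced at both times, 140-fold before dusk and 33.9-fold before dawn. The lowest CT12 library lay just below the highest CT24 library, while the unchilled groups did not overlap. Its time-of-day average of 0.21 (SE 0.20, edgeR adjusted p = 0.416) was not called.

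The second highest difference of responses belonged to OsR498G0101835100.01, an abundant dawn transcript. It measured 1.79, 1.40 and 0.941 CPM in NT12, 247, 185 and 250.0 in CT12, 348, 353 and 321 in NT24, and 807, 881 and 701 in CT24. Chilling before dusk brought it 165-fold up, and still below the level that unchilled seedlings had at dawn. Chilling before dawn added a 2.34-fold rise, and the time-of-day average was 4.88 (SE 0.16, edgeR adjusted p = 9.92e-10).

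The most positive time-of-day averages were those of OsR498G0100606400.01 and OsR498G0100349600.01. The first had 1.04, 0.729 and 0.987 CPM in NT12, 28.6, 26.0 and 26.6 in CT12, 304, 283 and 296 in NT24, and 612, 713 and 679 in CT24. Its unchilled level was 320.0-fold higher at dawn than at dusk, a gap of 8.27 log2 units. The 29.4-fold rise before dusk (a of 4.86) left it at a mean of 27.1 CPM in CT12, against 294 in NT24. Its time-of-day average was 6.47 (SE 0.11, edgeR adjusted p = 1.46e-11). The second, OsR498G0100349600.01, had 0.190, 0 and 0 CPM in NT12, 0.571, 2.69 and 0.510 in CT12, 6.32, 5.63 and 4.40 in NT24, and 16.7, 20.9 and 20.2 in CT24. It had 12 counts in NT12, all in replicate 1, so the size of its rise at dusk is poorly measured, and the fitted difference of responses ran from 1.25 to 7.11 log2 units with 1 library left out. Its time-of-day average was 5.16 (SE 0.62, edgeR adjusted p = 2.65e-05).

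At the other end stood OsR498G0917850800.01 and OsR498G0815338500.01, both higher at dusk than at dawn at both temperatures. The second was below 1 CPM in unchilled seedlings at both times. Beside them stood OsR498G0917659900.01 with an average of -5.29 (SE 0.64, edgeR adjusted p = 8.18e-05) that depends on the empty NT24 group. OsR498G0917850800.01 had 172, 132 and 142 CPM in NT12, 1625, 1901 and 1510.0 in CT12, 3.11, 6.98 and 6.61 in NT24, and 26.7, 20.01 and 19.1 in CT24. Chilling multiplied it 11.3-fold at dusk and 3.94-fold at dawn, and at dawn the chilled level stayed below the unchilled level of dusk. The difference of responses, 1.52, was close to the limit of the rule, while the time-of-day average was -5.50 (SE 0.22, edgeR adjusted p = 3.34e-09). OsR498G0815338500.01 had 0.443, 0.228 and 0.370 CPM in NT12, 13.4, 36.2 and 18.4 in CT12, 0, 0.0873 and 0 in NT24, and 0.101, 0.132 and 0.152 in CT24. Only the CT12 libraries held more than 1 CPM. At dawn it rested on 4 counts in NT24 and 19 in CT24, so b is poorly measured, and the fitted difference of responses ran from 0.34 to 4.53 with 1 library left out. Its average was -5.45 (SE 0.48, edgeR adjusted p = 2.02e-06).

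The most abundant members were OsR498G0409512600.01 and OsR498G0305664100.01. OsR498G0409512600.01 had 19.5, 7.62 and 11.7 CPM in NT12, 1920.1, 2069 and 1990.4 in CT12, 561, 448 and 464 in NT24, and 1209, 1576 and 2365 in CT24. The chilled groups overlapped, at means of 1993 ± 74.6 and 1717 ± 591 CPM (SD, n = 3), from unchilled levels that were 37.9-fold apart. OsR498G0305664100.01 had 57.6, 86.5 and 68.9 CPM in NT12, 1048, 871 and 1231 in CT12, 563, 571 and 553 in NT24, and 1722, 1563 and 1171 in CT24. Here too the chilled groups overlapped, at 1050.1 ± 180 and 1485 ± 284 CPM, and the unchilled groups, 7.92-fold apart, did not. The time-of-day averages were 2.51 (SE 0.23, edgeR adjusted p = 2.83e-06) and 1.74 (SE 0.14, edgeR adjusted p = 8.11e-07).

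**Figure D5:**
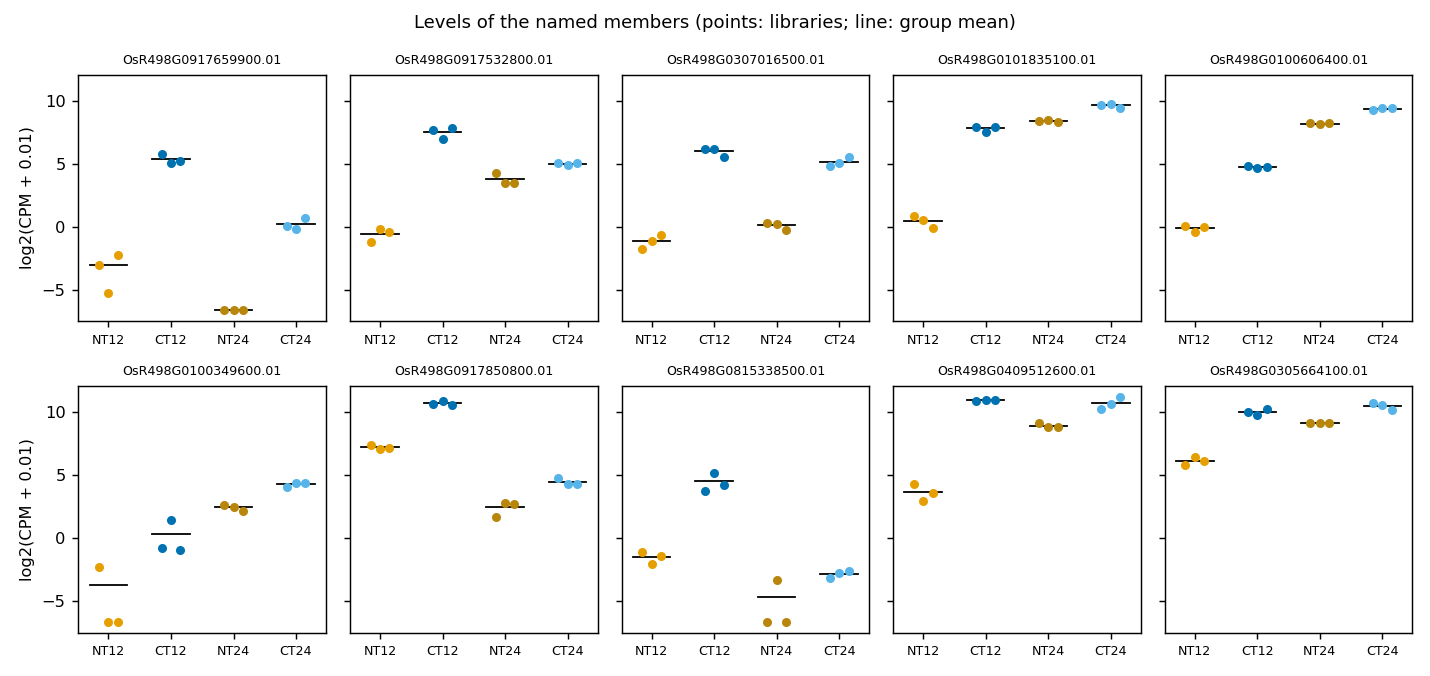
Each panel is a named member, with log2(CPM + 0.01) on the vertical axis and the 4 groups on the horizontal axis, 1 point per library and a line at the group mean. Chilled groups lie near each other for OsR498G0409512600.01 and OsR498G0305664100.01, whose NT12 level is the lowest of their 4 groups. For OsR498G0917850800.01 and OsR498G0815338500.01 the CT12 level stands far above the CT24 level. Points at the bottom edge are libraries with no count.

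Of the members, 127 had identifiers of the OsR498G form and 8 (5.93%) were numbered like Novel00733, a form that made up 2.78% of the genes at the minimum level. The sources used here do not say what the latter form stands for. In order of number, 3 pairs of members had identifiers with no other identifier between them, and whether such pairs share reads was not tested. The spread between libraries of a group, as a coefficient of variation over genes of at least 1 CPM there, had a median over members of 20.2% (NT12), 21.6% (CT12), 18.1% (NT24) and 16.9% (CT24), against 12.2%, 18.5%, 12.6% and 12.5% over all genes. Members and all genes were not matched for level here, so the members are not called more variable.

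Membership depended on how the libraries were scaled. The size factors of the rule were highest in NT12 (1.37 to 1.42) and lowest in CT12 (0.680 to 0.803), while total counts ran from 42966604 to 52762123 per library over all groups. The rule kept 134 genes with TMM scaling, 93 with upper-quartile scaling and 51 with total counts alone, and 46 members were kept under each of these and the main scaling. Total-count scaling lowered the median difference of responses over genes at the minimum level from 0.07 to -0.66. Over the members it lowered the median from 2.05 to 1.34 and the lowest value to 0.76, a shift close to that of all genes. Leaving out NT24 replicate 1 brought the lowest difference of responses among the members to -0.05. With the times of day exchanged, the rule kept 40 genes, 39 with TMM scaling and 48 with upper-quartile scaling, each time the shorter list. With total counts it kept 69, more than the 51 above, so which of the lists is longer depends on the scaling. Without NT24 replicate 1 the exchanged rule kept 75 genes, against 125 under the rule itself.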

How the data were processed

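RNA from shoots was sequenced in 12 libraries, 3 for each of 4 groups. The authors deposited whole-number counts per gene, with no normalization. Per the submitters' processing notes, HISAT2 2.0.4 was used. Not given in the sources used here were the counting tool, genome build, annotation and strandedness, which leaves reads of near-identical or overlapping genes uncertain. The members and lists were chosen with earlier results of these data known.

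Size factors for the rule used 22389 genes with counts in all libraries. Tests used R 4.3.3 and edgeR 4.0.16 on 24700 genes kept by edgeR's filter (minimum count 10, minimum total 15), which all 135 members passed, with TMM scaling, 1 mean per group, no block and 8 residual degrees of freedom. SE came from the F statistic. CPM used TMM-scaled library sizes. Alternatives used DESeq2 1.42.0, limma 3.58.1, other scalings, no filter, a replicate block and each library left out. Libraries of a group differed far beyond sampling noise (chi-square of 25.5 to 139 per gene), so each was counted. Whether the repeats came from separate pots or days is not stated, so p-values measure the spread between these samples. Floors and counts cover counting error only.

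Named members, at most 2 for each place and direction, had the highest a, b, difference of responses, called time-of-day average either way, or mean CPM. The split of the members by 2-fold gaps was chosen after the data were seen.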

Additional observations from a re-analysis of the deposited data

How the results depend on the processing

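The number of genes kept by the rule stayed between 93 and 145 in 16 of 17 alternatives and was 51 with total-count scaling. With 1 library left out it ran from 125 to 145, and 75 of the 135 members were kept in each of those 12 repeats. Which genes were kept changed more than their number. A constant of 10 in place of 1 kept 116 of the members, and the mean of log2 values kept 119. Only 39 members were kept in every setting. The larger gap lay at 13 °C for 85 members, and for 85 to 86 under the other scalings. Chosen after seeing the data, the split by 2-fold gaps was also repeated: with total counts 77 members had only the chilled gap, 36 only the unchilled gap, 3 both and 19 neither. Members called higher at ZT12 in the time-of-day average numbered 67 with the replicate number as a block (replicate block) and those higher at ZT24 32, as without it. Libraries of the same number did not deviate together more than others (r from -0.44 to 0.29 over 18 pairs, against -0.43 to 0.44 for other pairs). With 3 libraries per group such correlations cannot decide whether the numbers pair the samples. Over all genes the 2 counts ranged from 5922 to 6736 and from 5588 to 7433 over the 19 alternatives. For the 10 named members the average kept its sign and its side of the threshold in each of 190 repeats. Some of them were chosen for a large called average in these same libraries, and the rule fixes its sign for those highest in CT24. The repeats therefore describe these members and are no independent support. The difference of responses was less stable. Its call was lost in 1 of 19 repeats each for OsR498G0307016500.01 and OsR498G0917850800.01 (main edgeR adjusted p = 0.00428 and 0.0126). OsR498G0815338500.01 and OsR498G0100349600.01 were not called for it in the main fit (edgeR adjusted p = 0.0645 and 0.165). They gained the call in 3 repeats and in 1. OsR498G0917659900.01 was called for it neither in the main fit (edgeR adjusted p = 0.649) nor in any repeat. In the main fit b was not called for OsR498G0100349600.01 or OsR498G0815338500.01. Levels of a few counts limit the rises of members with an empty or nearly empty group at 28 °C.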
